A study of Mus musculus with 3 samples.

Results

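Transcripts of 10 cell surface markers that are used to tell pluripotent states apart were examined in ALSCs, a mouse stem cell line derived and maintained with Activin A (Act A) and LIF. The 10 genes, *Cd24a*, *Epcam*, *Cd9*, *Podxl*, *Prom1*, *Thy1*, *Cd40*, *Alpl*, *Cd44*, and *Pecam1*, were chosen by name as a group of surface antigens, with earlier results of these data known, and all 10 were found among the 55421 named genes of the deposited count table. The series holds 3 RNA-seq libraries of ALSCs, replicates 1, 2, and 3, and 1 condition only. The cells came from epiblasts of E6.5 gastrulae of ICR females mated with GOF/GFP males, which carry an *Oct4* reporter transgene, and were grown on fibronectin in N2B27 medium with Act A and LIF. The study describes its RNA-seq samples as biological replicates, and the labels do not say whether these were separate derivations or separate cultures. A p-value therefore measures only the spread between these libraries. Replicates 1, 2, and 3 held 18088505, 18724038, and 18037342 counts on named genes, of which the 10 genes together took 0.0898%, 0.0835%, and 0.0814%.

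Pluripotent cells of the mouse are found in a naive state, modelled by embryonic stem cells (ESCs), and in a primed state, modelled by epiblast stem cells (EpiSCs). Antibodies against surface proteins let living cells of these states be told apart or sorted without a reporter gene. PECAM1 is commonly used as a mark of naive ESCs, and CD24 and CD40 are carried at higher levels by primed cells, while EPCAM, CD9, and alkaline phosphatase are found on pluripotent cells more generally. The proteins are held in the membrane in different ways: CD24, THY1, and alkaline phosphatase hang on a glycosylphosphatidylinositol (GPI) anchor, EPCAM, podocalyxin, CD44, PECAM1, and CD40 cross the membrane a single time, and CD9 and prominin 1 cross it repeatedly. Here only RNA was measured, and RNA in bulk does not tell how much protein reached the surface. A low level in bulk RNA can come from fewer cells that carry a transcript or from less RNA per cell, and these cannot be told apart.

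The coding sequence of *Cd24a* is shown because the gene is short and has a close copy elsewhere in the genome, so that its reads might have been lost or shared. The coding part of its longest coding transcript (GENCODE M21, GRCm38) spans 231 bases, and capitals mark the bases that lie in a 50-base word also found in a transcript of another gene.
Cd24a: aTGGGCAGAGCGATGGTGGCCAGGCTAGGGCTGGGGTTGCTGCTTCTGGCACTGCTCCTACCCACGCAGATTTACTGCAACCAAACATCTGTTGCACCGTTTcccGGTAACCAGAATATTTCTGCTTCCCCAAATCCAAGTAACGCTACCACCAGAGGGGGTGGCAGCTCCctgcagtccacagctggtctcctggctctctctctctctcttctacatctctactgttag
The shared words covered 167 bases in 2 runs, bases 2 to 102 and 106 to 171 counted from the start codon, and the only gene they were shared with was *Gm6212* on chromosome 14. *Gm6212* had 0, 0, and 1 counts in replicates 1, 2, and 3, so few reads were assigned to the copy. Whether reads from the shared bases were lost from the *Cd24a* count was not tested. Over the whole transcript of *Cd24a*, 96.1% of the 50-base words occurred in no other gene, since its remaining bases carried none of the shared words.

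The promoters of *Epcam* and *Cd44* are shown as those of the most and the least abundant of the 5 markers for which the RefSeq promoter table (GRCm38.p6) had an entry. Each is the 250 bases before the annotated start on the strand of the gene, at chr17:87635729-87635978 (plus strand) for *Epcam* and chr2:102901666-102901915 (minus strand) for *Cd44*, and capitals mark a GC box (GGGCGG or, on the other strand, CCGCCC).
Epcam: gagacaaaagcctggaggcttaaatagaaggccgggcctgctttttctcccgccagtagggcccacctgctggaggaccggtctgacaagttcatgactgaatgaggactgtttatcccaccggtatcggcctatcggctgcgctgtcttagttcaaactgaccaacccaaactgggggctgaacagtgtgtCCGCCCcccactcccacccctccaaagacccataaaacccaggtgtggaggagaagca
Cd44: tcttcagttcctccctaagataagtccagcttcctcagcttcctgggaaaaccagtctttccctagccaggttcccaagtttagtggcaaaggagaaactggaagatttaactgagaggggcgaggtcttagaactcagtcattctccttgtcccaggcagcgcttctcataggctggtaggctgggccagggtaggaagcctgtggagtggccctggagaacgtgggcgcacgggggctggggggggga
The GC box occurred in 4 of the 5 promoters (*Cd9*, *Alpl*, *Prom1*, and *Epcam*, not *Cd44*) and in 32.7% of all 32851 promoters of the table. The letters TATAAA occurred on either strand in 0 of the 5 and in 12.4% of all promoters. The *Epcam* promoter held 8 CpG dinucleotides and that of *Cd44* held 5, against 9 for *Prom1*, 16 for *Cd9*, 20 for *Alpl*, and a median of 6 over all promoters. These counts describe the letters in this window and say nothing of which factors bind there.

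Levels are given as FPKM, the count scaled to gene length and to the library's total on named genes, because the genes differ in length from 2044 bases (*Cd9*) to 7175 bases (*Prom1*). A level of 1 FPKM in each of the 3 libraries was reached by 8 of the 10 markers, against 20.1% of all named genes and 45.7% of the protein-coding genes. All 10 lay above the level that 3 counts would give, the limit set here for a gene counted as not detected, in each library. Limits and intervals of this kind take in counting error only. Reads counted without molecular identifiers can come from the same molecule, so the intervals can be too narrow even for that. The levels spanned 3 groups that the next paragraphs describe: *Cd24a* and *Epcam* above 100 FPKM, 6 genes between 4 and 30 FPKM, and *Cd44* and *Pecam1* at about 1 FPKM or less.

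**Figure D1:**
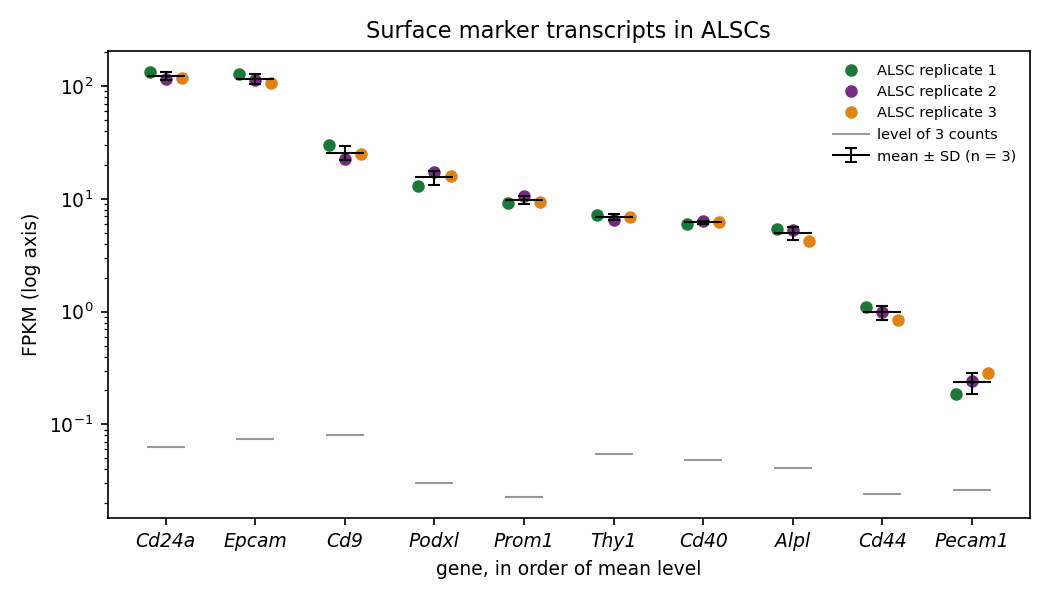
FPKM (log axis) of the 10 surface markers in each ALSC library, in order of mean level, with the mean ± SD (n = 3) in black and the level of 3 counts in grey. With the deposited gene length, *Cd24a* and *Epcam* sit together at 123 and 116 FPKM. *Pecam1* lies lowest at 0.237 FPKM, still above its grey line in every library.

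*Cd24a* (ENSMUSG00000047139; GRCm38 chromosome 10, 43578284 to 43584265, plus strand) encodes a small, heavily glycosylated protein on a GPI anchor, and primed cells carry more of it than naive cells. Its level was 134, 116, and 118 FPKM in replicates 1, 2, and 3, from 6238, 5601, and 5504 counts. Replicate 1 was the highest and the other two libraries lay close together. The mean of 123 ± 9.63 FPKM (SD, n = 3) exceeded 95.9% of the 11125 genes with 1 FPKM or more in each library.

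*Epcam* (ENSMUSG00000045394; chromosome 17, 87635979 to 87651129, plus strand) encodes an epithelial adhesion molecule whose cleaved intracellular part can act in the nucleus. It was measured at 128, 113, and 107 FPKM in replicates 1, 2, and 3, from 5100, 4625, and 4242 counts, with a mean of 116 ± 11.1 FPKM (SD, n = 3). Of the 50-base words of its longest coding transcript, 100% occurred in no other gene. *Cd24a* and *Epcam* together made up 78.4%, 76.6%, and 76.6% of the summed FPKM of the 10 markers in replicates 1, 2, and 3.

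*Cd9* (ENSMUSG00000030342; chromosome 6, 125460266 to 125494791, minus strand) encodes a tetraspanin, a protein that gathers integrins and other partners in the membrane, and is known as a target of LIF and STAT3 in ESCs. Its level was 29.9, 22.6, and 24.8 FPKM, from 1107, 864, and 916 counts, with a mean of 25.8 ± 3.77 FPKM (SD, n = 3). Replicate 1 was again the highest. Only 84.5% of the 50-base words of *Cd9* were its own, since 218 bases of its exons overlap those of *Gm26728* on the opposite strand, and 14 words were shared with the pseudogene *Cd9-ps*. Whether the counting used strand is not given in the sources used here. *Gm26728* had 0, 1, and 2 counts and *Cd9-ps* had 0 counts in each library, so few reads were assigned to them. Whether reads from the shared bases were left out of the *Cd9* count was not tested.

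*Podxl* (ENSMUSG00000025608; chromosome 6, 31519488 to 31563981, minus strand) encodes podocalyxin, a sialomucin that lines lumens and keeps membranes apart. Its level was 13.0, 17.4, and 16.1 FPKM from 1295, 1792, and 1594 counts, with a mean of 15.5 ± 2.25 FPKM (SD, n = 3). Here replicate 1 was the lowest, unlike for *Cd24a*, *Epcam*, and *Cd9*. *Prom1* (ENSMUSG00000029086; chromosome 5, 43993620 to 44102032, minus strand) encodes prominin 1 (CD133), which sits on membrane protrusions. It was at 9.20, 10.6, and 9.37 FPKM from 1194, 1427, and 1212 counts, with a mean of 9.73 ± 0.778 FPKM (SD, n = 3). The exons of *Prom1* overlap those of *Gm16401* on the opposite strand by 424 bases, and *Gm16401* had 10, 4, and 9 counts.

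*Thy1* (ENSMUSG00000032011; chromosome 9, 44043384 to 44048579, plus strand) encodes a GPI-anchored protein of the immunoglobulin family that neurons, T cells, and fibroblasts also carry. It was measured at 7.22, 6.44, and 6.98 FPKM from 391, 361, and 377 counts, with a mean of 6.88 ± 0.400 FPKM (SD, n = 3). *Cd40* (ENSMUSG00000017652; chromosome 2, 165055627 to 165072948, plus strand) encodes a receptor of the TNF receptor family that is best known from B cells and is also a mark of EpiSCs. Its level was 5.96, 6.35, and 6.27 FPKM from 367, 405, and 385 counts, with a mean of 6.19 ± 0.207 FPKM (SD, n = 3). Its SD was 3.35% of its mean, the smallest share among the 10 markers. *Alpl* (ENSMUSG00000028766; chromosome 4, 137741733 to 137796384, minus strand) encodes the tissue-nonspecific alkaline phosphatase. It was at 5.39, 5.26, and 4.28 FPKM from 393, 397, and 311 counts, with a mean of 4.97 ± 0.608 FPKM (SD, n = 3), and replicate 3 was the lowest. The mean levels of *Thy1*, *Cd40*, and *Alpl* exceeded those of 44.9%, 41.7%, and 34.8% of the genes at 1 FPKM or more. With the deposited gene length, these markers thus lay below the middle of the expressed genes. Their place with another choice of length was not computed.

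*Cd44* (ENSMUSG00000005087; chromosome 2, 102811141 to 102901665, minus strand) encodes the main receptor for hyaluronan. Its level was 1.11, 1.00, and 0.843 FPKM from 136, 127, and 103 counts, with a mean of 0.984 ± 0.134 FPKM (SD, n = 3), so that it crossed 1 FPKM between libraries. *Pecam1* (ENSMUSG00000020717; chromosome 11, 106654217 to 106750628, minus strand) encodes an adhesion molecule of endothelium that naive ESCs also carry. It was the least abundant of the 10 markers, at 0.186, 0.240, and 0.285 FPKM from 21, 28, and 32 counts, with a mean of 0.237 ± 0.0493 FPKM (SD, n = 3). The exact Poisson 95% interval was 0.115 to 0.285 FPKM in replicate 1, 0.160 to 0.347 in replicate 2, and 0.195 to 0.402 in replicate 3, so the libraries could not be told apart at this depth. A count of 3 would have put *Pecam1* at 0.0264 FPKM, below all of these intervals.

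By type of membrane anchor, the 3 GPI-anchored markers made up 43.5% ± 0.652 (SD, n = 3) of the summed FPKM of the 10 markers, the 5 single-pass proteins 45.0% ± 0.957, and the 2 multi-pass proteins 11.5% ± 0.316. A single gene led each type, *Cd24a* among the GPI-anchored proteins, *Epcam* among the single-pass proteins, and *Cd9* among the multi-pass proteins. The shares rest on the deposited gene length, and their SDs cover the spread between libraries only. With the length of the longest coding transcript, *Cd24a* was at 174 FPKM and *Epcam* at 125 FPKM. The order of the 2 largest types is therefore not settled by these shares.

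The order of the levels was compared between neighbours by the ranges of their 3 libraries, without a test, since 3 paired libraries could not give a two-sided sign test p below 0.25. In 8 of the 9 neighbouring pairs the ranges did not overlap. The exception was *Cd24a* and *Epcam*, which differed 1.06-fold in their means with *Cd24a* ahead in 3 of 3 libraries. With the deposited gene length, the widest gaps were those from *Alpl* down to *Cd44* (5.05-fold), from *Epcam* down to *Cd9* (4.50-fold), and from *Cd44* down to *Pecam1* (4.15-fold). The steps from *Cd9* to *Podxl*, *Podxl* to *Prom1*, and *Prom1* to *Thy1* were 1.66-fold, 1.60-fold, and 1.41-fold, and their Poisson intervals were apart in 3 of 3 libraries. *Thy1* and *Cd40* differed 1.11-fold, and their Poisson intervals overlapped in all 3 libraries, so their order rests on a difference that no single library resolved. *Cd40* and *Alpl* differed 1.24-fold, with intervals apart in 1 of 3 libraries. The order also depends on the gene length used. The deposited length equals the union of all annotated exons for each of the 10 genes, and with the length of the longest coding transcript instead, *Prom1* (17.1 FPKM) moved ahead of *Podxl* (15.8 FPKM) and *Alpl* (7.95 FPKM) ahead of *Cd40* (7.06 FPKM). *Cd24a*, *Epcam*, and *Cd9* stayed the highest 3 and *Cd44* and *Pecam1* the lowest 2 with either length. The levels themselves moved by up to 1.81-fold, from 0.237 to 0.429 FPKM for *Pecam1*, from 6.88 to 11.9 FPKM for *Thy1*, and from 25.8 to 42.9 FPKM for *Cd9*. The gap from *Epcam* to *Cd9* narrowed to 2.91-fold and that from *Cd44* to *Pecam1* to 2.77-fold, while that from *Thy1* to *Cd40* widened to 1.68-fold. That from *Cd24a* (174 FPKM) to *Epcam* (125 FPKM) widened to 1.40-fold, so the closeness of this pair also depends on the length used.

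A chi-square test of homogeneity asked whether the counts of a marker varied between the libraries, given library sizes scaled with edgeR's TMM factors, with Benjamini-Hochberg adjustment over all 16944 genes tested. The test sets the libraries against counting error alone, so an abundant gene passes at a small difference. It was passed by 6 of the 10 markers, against 47.2% of all genes tested and 64.7% of those with 100 counts or more on average. The adjusted p was 1.87e-29 for *Epcam*, 1.36e-28 for *Cd24a*, 8.2e-13 for *Cd9*, 3.12e-09 for *Podxl*, 0.00377 for *Alpl*, and 0.0238 for *Prom1*. It was 0.0974 for *Cd44*, 0.118 for *Thy1*, 0.491 for *Pecam1*, and 0.991 for *Cd40*. The differences behind these calls were small, with the highest library 1.12-fold above the lowest for *Prom1*, 1.22-fold for *Cd24a*, 1.25-fold for *Epcam*, 1.26-fold for *Podxl*, 1.31-fold for *Alpl*, and 1.40-fold for *Cd9*. *Pecam1* and *Cd44* spanned 1.47-fold and 1.37-fold without passing the test, at far fewer counts.

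The calls were read again with each replicate left out. Without replicate 1, 0 of the 10 markers passed the chi-square test after adjustment, against 8.11% of all genes tested, and 3 did at an unadjusted p below 0.05. The calls for *Cd24a*, *Epcam*, *Cd9*, and *Podxl* were lost without replicate 1 and held without replicate 2 or 3. Those for *Prom1* and *Alpl* turned on other libraries too. Without replicate 1, *Prom1* (adjusted p = 0.0544, chi-square test) and *Alpl* (0.0975) were near the threshold. Without replicate 2, *Prom1* no longer passed (adjusted p = 0.691, chi-square test) and *Cd44* did (0.0372). Without replicate 3, *Prom1* (adjusted p = 0.0537, chi-square test) and *Alpl* (0.372) no longer passed and *Thy1* did (0.0425). The calls for *Prom1*, *Alpl*, *Thy1*, and *Cd44* thus each depend on which libraries are used.

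The departure of replicate 1 from replicates 2 and 3 was set against gene length. The 4 shortest markers were all higher in replicate 1, by 0.41 for *Cd9*, 0.30 for *Epcam*, 0.26 for *Cd24a*, and 0.17 for *Thy1* as the log2 ratio of the TMM-scaled level to the mean of the others. Over the 10577 genes that averaged 100 counts or more, the median ratio fell with length, from 0.39 at 685 bases to -0.53 at 15648 bases, and at the lengths of these 4 markers that trend stood between 0.12 and 0.25. Of the 4 longest markers, *Podxl* (-0.29), *Pecam1* (-0.43), and *Prom1* (-0.05) were lower in replicate 1, while *Cd44* was higher by 0.34 although the trend at its length was -0.18. With the length trend removed, the ratio of *Cd9* moved to 0.15, that of *Epcam* to 0.07, and that of *Cd24a* to 0.08, and that of *Prom1* turned from -0.05 to 0.15. *Alpl* was at 0.25 before and 0.24 after. *Cd40* moved from -0.01 to -0.10 and *Cd44* to 0.51, both further from 0, as was *Prom1*. For *Cd40* and *Pecam1* the counts could not be told from counting error with the length trend removed (adjusted p = 0.653 and 0.657, chi-square test). All 6 calls held with the length trend removed, at adjusted p of 0.000214 (*Podxl*) to 0.0114 (*Cd9*) in the chi-square test, and *Cd44* passed as well (0.00915). When a trend on GC content was removed too, *Cd24a* no longer passed (adjusted p = 0.799, chi-square test), with a ratio of 0.02. *Epcam*, *Podxl*, *Alpl*, *Prom1*, *Cd44*, and *Cd9* still did, at adjusted p of 0.00045 (*Epcam*) to 0.0335 (*Cd9*). The part that length and GC content play in the difference of a single gene in a single library was otherwise not tested.

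**Figure D2:**
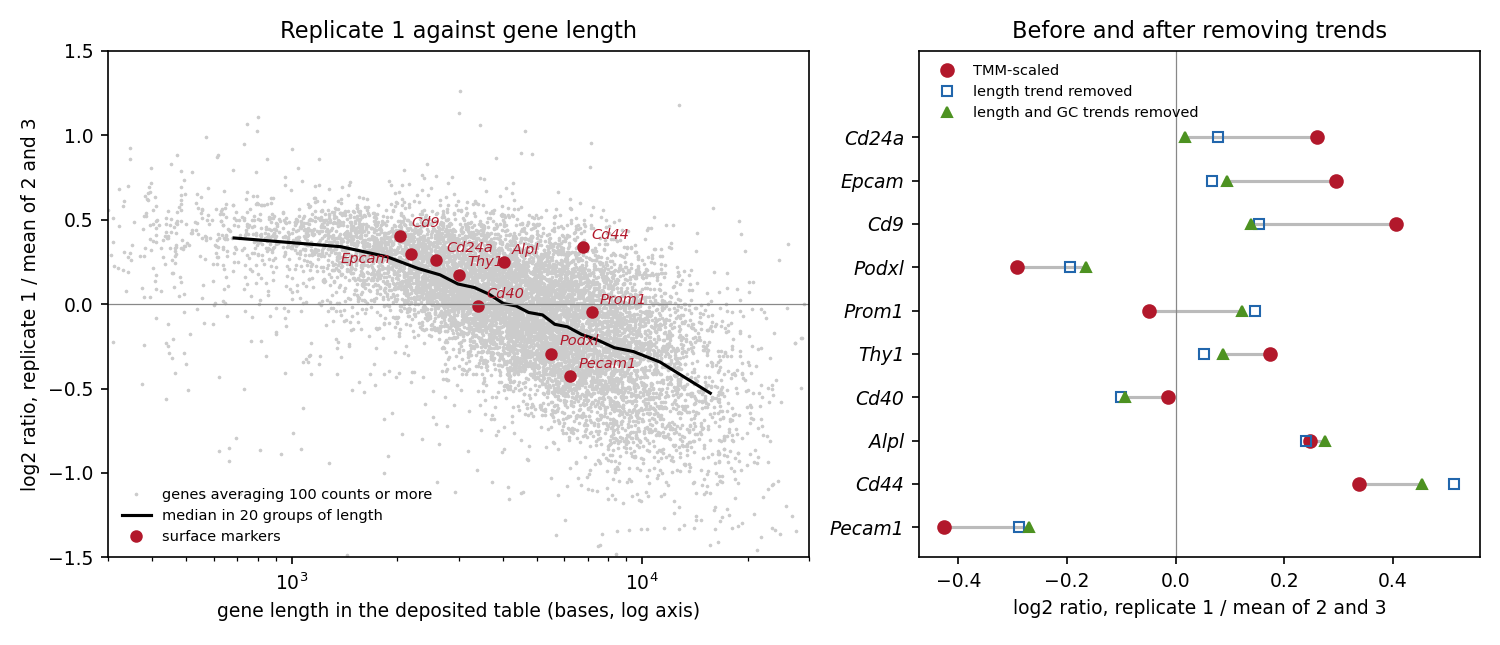
Left, log2 ratio of replicate 1 to the mean of replicates 2 and 3 (TMM-scaled counts) against gene length on a log axis, for genes averaging 100 counts or more (grey, 74 of 10577 lie outside the axes), their median in 20 groups of length (line), and the 10 surface markers (red). Right, the ratio of each marker as TMM-scaled (circles), with the length trend removed (squares), and with length and GC trends removed (triangles): *Cd9*, *Epcam*, and *Cd24a* move towards 0, while *Cd44*, *Prom1*, and *Cd40* move away from it.

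Partners and relatives of the markers and genes of other surface antigens, 127 in all on 12 lists, were set beside the markers. Of these, 90 passed 1 FPKM in each of the 3 libraries. The lists were written with earlier results of these data known, and their counts are given as a description beside the shares of all genes above (45.7% of protein-coding genes at 1 FPKM, and 51.7% of those tested varying between the libraries).

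The enzymes that build and attach the GPI anchor, on which CD24, THY1, and alkaline phosphatase depend, were nearly all expressed. Of 24 genes in the table, 23 reached 1 FPKM in all libraries, led by *Pigs* at 40.0 ± 1.27 FPKM and *Pigf* at 21.0 ± 2.12 FPKM (SD, n = 3), and 12 of 24 varied between the libraries. In contrast, the other alkaline phosphatase genes of the mouse, *Alppl2*, *Akp3*, and *Alpi*, had 0 counts in each library, so that *Alpl* was the only member of its family detected at this depth. For *Alppl2*, the embryonic form of the enzyme, the limit of 3 counts stood at 0.0737 FPKM in the shallowest library, against 4.97 FPKM for *Alpl*.

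Other close relatives had low levels or were not detected. *Prom2*, the second prominin, had 4, 3, and 4 counts, with a mean of 0.0388 ± 0.00682 FPKM (SD, n = 3), against 9.73 FPKM for *Prom1*. *Podxl2* and *Cd34* belong with *Podxl* to the CD34 family of sialomucins. *Podxl2* had 90, 89, and 67 counts and a mean of 0.779 ± 0.117 FPKM (SD, n = 3), and *Cd34*, at 0, 3, and 2 counts, did not pass the limit of 3 counts in any library. In the families of *Podxl*, *Prom1*, and *Alpl*, the marker was therefore the most abundant gene in every library.

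*Cd9* had company among its relatives. Of 30 further tetraspanins, 17 reached 1 FPKM in all libraries and 5 had at most 3 counts in each. The highest of them were *Tspan3* (35.0 ± 3.13 FPKM) and *Cd151* (33.1 ± 0.831 FPKM), and 12 of 24 tested varied between the libraries. With the deposited gene length, both lay above *Cd9* in mean level. So did *Cd81* (31.0 ± 1.97 FPKM) and *Tspan13* (26.4 ± 2.27 FPKM), named after their values had been seen. The 5 partners of CD9 on the list were all at 1 FPKM or more, with the integrin chains *Itgb1* at 74.3 ± 4.70 FPKM and *Itga6* at 22.4 ± 4.83 FPKM (SD, n = 3) in the lead, and 4 of 5 varied.

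Of the 8 genes listed as partner or protease of EPCAM, 8 reached 1 FPKM in all libraries. *Psenen* (31.2 ± 6.21 FPKM) and *Aph1a* (19.5 ± 0.792 FPKM), subunits of the gamma-secretase that cuts within the membrane, led the list, and 6 of 8 varied. *Cldn7*, a claudin that binds EPCAM and was picked out after its values had been seen, was at 5.89 ± 1.20 FPKM (SD, n = 3). The 6 genes listed for the linkage of podocalyxin and CD44 to cortical actin, not all of them direct linkers, were all expressed, and 5 of 6 varied. The highest were *Slc9a3r1* at 121 ± 1.36 FPKM and *Ezr* at 102 ± 9.43 FPKM (SD, n = 3). The lowest of the 6, *Slc9a3r2* at 5.37 FPKM and named after its value had been seen, lay below *Podxl* (15.5 FPKM) and above *Cd44* (0.984 FPKM).

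Among 7 genes of hyaluronan, the ligand of CD44, 3 reached 1 FPKM in all libraries and 3 of 5 tested varied. The highest were *Hmmr*, a hyaluronan-binding protein of the mitotic spindle, at 32.0 ± 3.99 FPKM and the hyaluronidase *Hyal2* at 12.7 ± 0.986 FPKM (SD, n = 3). Of 14 genes downstream or upstream of CD40, 10 reached 1 FPKM and 3 of 11 tested varied. *Birc2* (18.6 ± 0.743 FPKM) and *Nfkb2* (7.81 ± 0.470 FPKM), genes of the NF-κB branch that CD40 can activate, were the highest. The ligand gene *Cd40lg* had 0 counts in each library, where the limit of 3 counts stood at 0.133 FPKM or less, against 6.19 FPKM for the receptor.

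Fucosyltransferases were listed because SSEA-1, a carbohydrate antigen used beside PECAM1 for ESCs, has no gene of its own and is made by *Fut9* and *Fut4*. Of 8 such enzymes, 3 reached 1 FPKM in all libraries, with *Fut11* at 4.39 ± 0.262 FPKM and *Fut10* at 2.42 ± 0.425 FPKM (SD, n = 3) the highest, and 3 of 6 tested varied. The genes for SSEA-1, picked out after their values had been seen, differed, with *Fut9* at 1.10 ± 0.0919 FPKM (SD, n = 3). *Fut9* fell just short of the cut in replicate 1, at 0.9998 FPKM, and so was not counted among the 3. *Fut4* had 0 counts in each library, where the limit of 3 counts stood at 0.0408 FPKM or less. Of 20 other surface antigens, 16 reached 1 FPKM and 11 varied. *Bst2*, an antiviral protein with a GPI anchor, was the highest at 175 ± 30.1 FPKM and lay above *Cd24a* in every library, followed by *Cd59a*, a GPI-anchored inhibitor of complement, at 80.3 ± 6.42 FPKM (SD, n = 3).

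**Figure D3:**
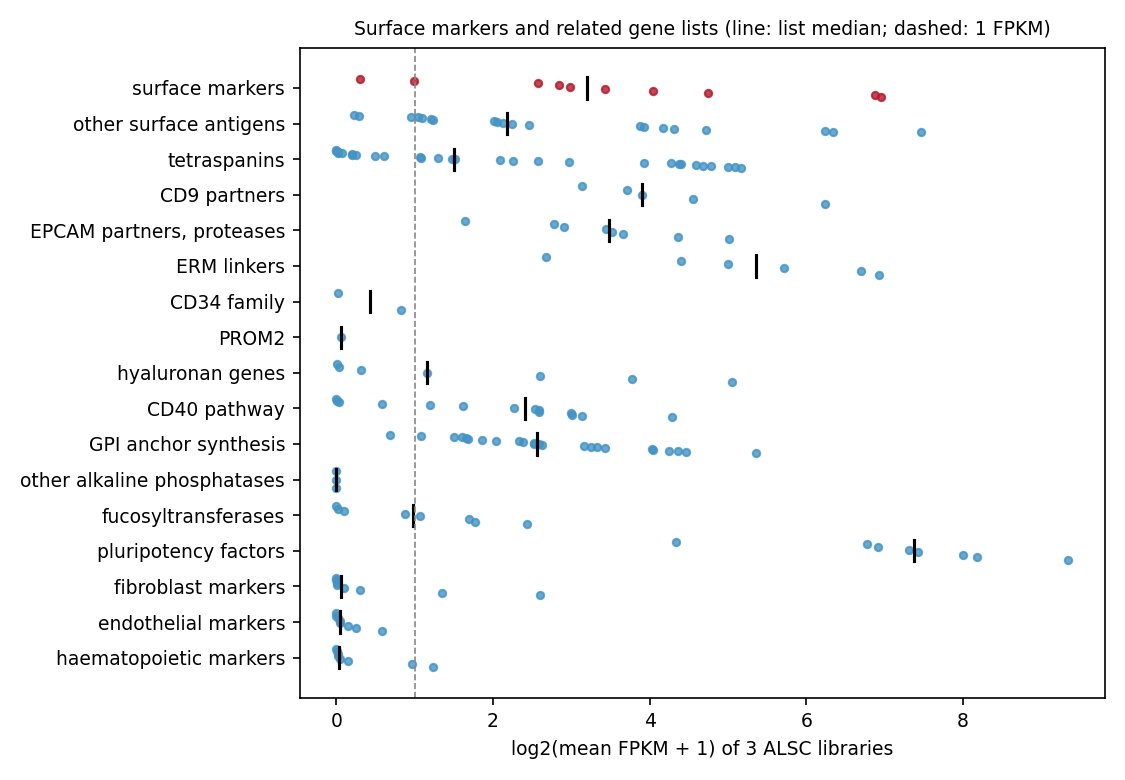
log2(mean FPKM + 1) of the 3 ALSC libraries for each gene of the surface markers (red) and of the related and cell type lists (blue), with the list median as a black line and 1 FPKM as a dashed line. The other alkaline phosphatases and *Prom2* lie at or near 0, the GPI anchor list lies almost wholly to the right of 1 FPKM, and most fibroblast, endothelial, and haematopoietic markers lie to its left.

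Several of the 10 markers are also carried by cells other than pluripotent ones, so lists of cell type markers were counted in the same libraries. All 8 pluripotency genes reached 1 FPKM, led by *Pou5f1* at 648 ± 25.3 FPKM and *Tdgf1* at 288 ± 7.34 FPKM (SD, n = 3), and the list summed to 1733 to 1807 FPKM per library. For *Thy1*, which fibroblasts carry, 2 of 8 fibroblast markers reached 1 FPKM, *Col1a1* at 5.04 ± 1.11 FPKM and *Pdgfrb* at 1.54 ± 0.120 FPKM (SD, n = 3). The fibroblast list summed to 5.60 to 8.27 FPKM, and 4 of its 8 genes had at most 3 counts in each library, with *Dcn* and *Lum* at 0. *Thy1* itself, at 6.88 FPKM, lay close to *Col1a1* in mean level and within the range of these sums. For *Thy1* the cut therefore does not tell the source of the reads, which was not tested. For *Pecam1*, which endothelium carries, 0 of 8 endothelial markers, *Cd34* among them, reached 1 FPKM, and the list summed to 0.650 to 1.16 FPKM. The highest were *Tek* (27, 64, and 39 counts) and *Esam* at 0.185 FPKM. *Pecam1* itself, at 0.237 FPKM, lay below this cut, above *Esam* and below *Tek* in mean level. The cut therefore does not tell whether *Pecam1* reads came from endothelial cells, which was not tested. *Tie1* and *Emcn* had 0 counts, while *Vwf* had 11, 14, and 4 counts and *Kdr* had 6, 6, and 3. For *Cd40*, *Cd44*, and *Thy1*, which blood cells carry, 1 of 8 haematopoietic markers reached 1 FPKM, *Laptm5* at 1.35 ± 0.0713 FPKM (SD, n = 3). *Cd68* was next at 0.957 FPKM, close to *Cd44* at 0.984 FPKM, so for *Cd44* this cut does not tell the source of the reads either. The haematopoietic list summed to 2.09 to 2.82 FPKM, *Cd3e* had 0 counts, and *Ptprc*, which all leukocytes carry, had 0, 2, and 0 counts in replicates 1, 2, and 3.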

How the data were processed

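Libraries of 3 ALSC samples were made from poly(A) RNA, per the labels, and sequenced as paired-end reads that were mapped to GRCm38, per the methods of the study. HISAT2 2.0.5 is named in the submitters' processing notes. The authors deposited raw counts per gene with gene position and length, without normalization. The counting program and its use of strand are not given in the sources used here. The table's 3 other count columns match no sample of this series and were not used. Of 55738 rows, 317 had no gene name (0.165% to 0.182% of the counts) and were left out.

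FPKM was computed from the deposited counts, the deposited gene length, and the total on named genes. Genes with at least 10 counts in total entered the chi-square test (threshold 0.05 after Benjamini-Hochberg adjustment), with TMM library sizes from edgeR 4.0.16 and DESeq2 1.42.0 size factors as an alternative (R 4.3.3, Python 3.11.15, SciPy 1.17.1, matplotlib 3.10.9). With 1 condition, no contrast between groups could be tested. Length and GC trends were medians in 20 groups over genes that averaged 100 counts or more. The test and the trend removal were tried on simulated counts whose only random spread was counting error. This does not show how they behave with the spread between these libraries. Shared 50-base words were sought in all GENCODE M21 transcripts on both strands, and promoters came from RefSeq. The members and lists were chosen with earlier results of these data known. Named in the text are all 10 markers, the 2 genes with the highest mean of each list, and all alkaline phosphatases, prominins, and CD34 family genes, and 1 further gene of the rule is not reported here. Genes at 0 and others picked out besides were chosen after their values had been seen. *Pigy* was on the GPI list and had no row under that name.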

Additional observations from a re-analysis of the deposited data

How the results depend on the processing

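No paired analysis was possible because all samples share a single condition. The number of markers that varied between the libraries, 6, was 6 with DESeq2 size factors (47.2% of all genes tested varied), with total counts (47.5%), with no count filter beyond 1 count (32.5%), and with at least 100 counts in total (60.7%, without *Pecam1*). It was 7 with the length trend removed (38.5%) and 6 with length and GC trends removed (37.9%), an alternative chosen after seeing the data. Leaving out a replicate gave 0 to 6, with 0 without replicate 1 (8.11%), 6 without replicate 2 (42.9%), and 5 without replicate 3 (46.7%). The number of neighbouring pairs whose ranges did not overlap, 8, was 7 with the longest coding transcript as length and 8 to 9 when a replicate was left out. With that length the mean FPKM of 8 of the 10 markers moved by more than 1 SD, by 1.81-fold for *Pecam1*, 1.75-fold for *Prom1*, 1.73-fold for *Thy1*, 1.66-fold for *Cd9*, and 1.60-fold for *Alpl*, while TMM, DESeq2, and totals without mitochondrial genes moved none by as much. The 90 related genes at 1 FPKM became 98 at 0.5 FPKM and 75 at 2 FPKM. Depth limited *Pecam1* and *Cd44* most, with 81 and 366 counts over all libraries.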
